A study of Mus musculus with 20 samples.

Results

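The response of subcutaneous fat to a high fat diet was compared between control and Ad-Tmem120a-/- mice, to ask whether loss of Tmem120a from fat cells alters which genes the diet moves. All 20 libraries of the series entered the comparison, with 5 libraries from female C57BL/6 mice of 6 months in each group. Control mice, labelled wild type, were littermates with both Tmem120a alleles floxed around exons 2 and 3 and no Cre, and knockout mice carried the same floxed alleles with a Cre transgene under the adiponectin promoter. Both genotypes were fed for 15 weeks with a diet of either 10.5% fat (low fat diet, LFD) or 58% fat (high fat diet, HFD). RNA was taken from whole inguinal white adipose tissue (iWAT). By the paper's methods the HFD also held less carbohydrate, mainly sucrose, against mainly corn starch in the LFD. Mice were fasted before dissection. Adiponectin is made by mature fat cells, so progenitors, blood vessels, immune cells and any epithelium or muscle in the depot keep the gene in the knockout. In whole tissue, fewer cells of a type and less RNA per cell cannot be told apart.

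White fat cells store fatty acids as triglyceride in a single large droplet, and they can take these fatty acids from the blood or build them from glucose. When a diet supplies much fat, synthesis from glucose falls in fat and liver, the cells enlarge, and the hormone leptin is released in proportion to the stored fat. TMEM120A is a membrane protein of the nuclear envelope, and the study asked how its loss affects genes that fat cells position at the nuclear edge.

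The comparison rests on the diet response and the interaction. The diet response of a genotype is the log2 fold change of HFD over LFD, and the interaction is the knockout response minus the control response. Values are given as CPM, counts scaled to a common library total after TMM normalisation, as in the test, and in the order of the replicate numbers. A call is a Benjamini-Hochberg adjusted p under 0.1 in edgeR's quasi-likelihood test over the 15574 genes whose TPM averaged 0.5 or more across the libraries. The 20 white adipocyte markers, summed, were at 23079 to 43636 CPM in every library. Libraries held between 54605101 and 92387737 estimated counts. Tmem120a itself was at 63.2, 73.2, 113, 172 and 97.7 CPM in control LFD libraries and 206, 119.7, 114, 87.3 and 97.2 CPM in control HFD libraries. Knockout values of Tmem120a were 28.5, 57.2, 40.4, 17.2 and 27.1 CPM on LFD and 54.0, 25.5, 25.7, 30.5 and 58.8 CPM on HFD, so every knockout library lay under every control library. Its interaction was -0.07 (SE 0.47, 95% interval -1.06 to 0.91, unadjusted p = 0.878 by edgeR), and that of its paralog Tmem120b was -0.18 (95% interval -1.26 to 0.91).

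No gene was called in the interaction by edgeR, 0% of the genes tested. An unadjusted p under 0.05 was held by 560 genes (3.60%), and DESeq2 run on the same counts called 17, of which 13 had a group with at most 3 counts in every library. The diet moved many genes in each genotype. In control mice 1380 genes (8.86%) were called, 678 higher (4.35%) and 702 lower (4.51%) on HFD. In knockout mice 2124 (13.6%) were called, 1040 higher (6.68%) and 1084 lower (6.96%). With each genotype fitted on its own libraries, 1427 genes were called in control and 1476 in knockout mice. The mean of both responses was called for 3923 genes (25.2%), with 1925 rises (12.4%) and 1998 falls (12.8%). With limma on log2(TPM + 1) that split was 3510 rises and 1183 falls, with 1736 and 305 in control and 1619 and 793 in knockout mice. On that scale the median response of all genes lay at 0.12 in control and 0.08 in knockout mice, against -0.03 in control mice on the scale used here.

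Across all genes tested, the control and knockout responses had the same sign for 11507 genes (73.9%), with Pearson's r of 0.337 and Spearman's rho of 0.587 as a description over genes, which are not independent replicates. Leaving out each library in turn gave r of 0.245 to 0.370 and a leave-one-out standard error of 0.124. By expression class r was 0.251 between 0.5 and 1 TPM, 0.252 up to 5 TPM, 0.525 up to 20 TPM and 0.394 up to 100 TPM. Spearman's rho in the same classes was 0.343, 0.490, 0.662 and 0.743. The median standard error of the interaction was 0.99 in the lowest class. At 100 TPM or more r was 0.800 and rho 0.823 over 874 genes with a median standard error of 0.27. Without the genes of which 1 group or more held at most 3 counts in every library, r was 0.494 over 15079 genes.

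**Figure D1:**
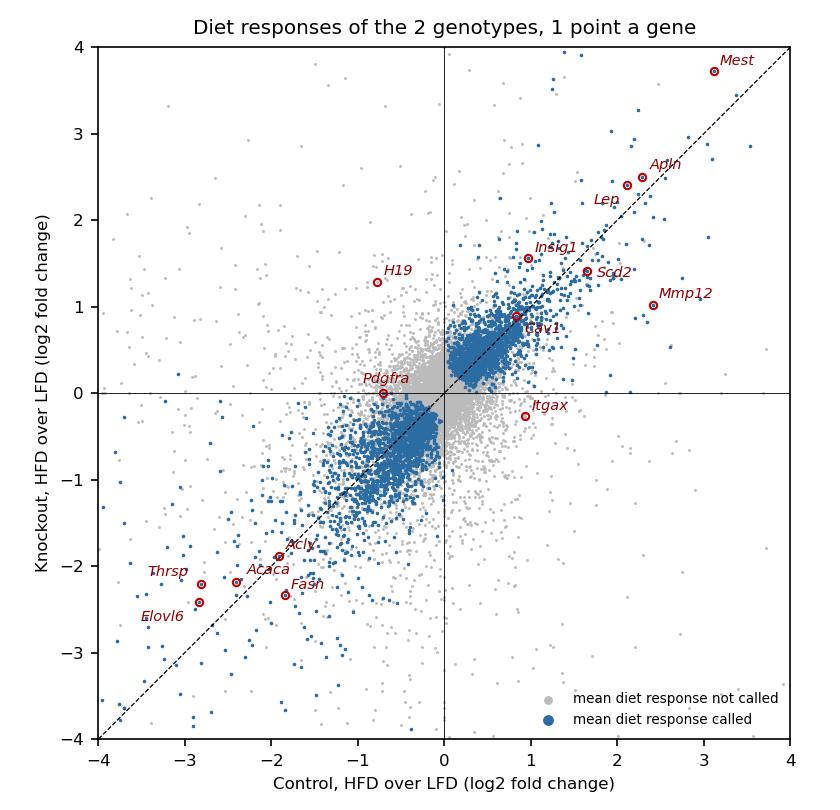
Diet response of each gene in control mice (x axis) against knockout mice (y axis), both as log2 fold change of HFD over LFD, with genes called in the mean response picked out and 15264 genes drawn within limits of 4 log2 units. Genes with a called mean response lie along the diagonal, and such a call favours responses of the same sign. H19, Pdgfra and Itgax, named for a small unadjusted interaction p, lie off the diagonal.

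In this balanced design the estimates of the mean response and the interaction are uncorrelated where both genotypes have like variances. This need not hold at low counts. Among the 3923 genes called by their mean response, the responses had the same sign for 3896 (99.3%). A call of the mean favours responses of the same sign, so this share is a description. Their pooled rho of 0.888 and r of 0.698 hold the split between rises and falls. Within the 1925 rises rho was 0.628 and r 0.740, and within the 1998 falls rho was 0.568 and r 0.410. The median size of the response was 0.50 in control and 0.56 in knockout mice. The control response was the larger for 1506 of them (38.4%). The 95% interval of the interaction lay within 1 log2 unit on either side of 0 for 2615 (66.7%) and within 0.5 for 647 (16.5%), and for the other genes it reached past 0.5. An unadjusted interaction p under 0.05 was held by 204 (5.2%), against 3.60% of all genes tested. These were 57 of the rises (2.96%) and 147 of the falls (7.36%).

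Of the 1380 genes called in control mice, 908 (65.8%) were called in the same direction in the knockout and 1312 (95.1%) had the same sign. Of the 2124 called in the knockout, those 908 made up 42.7% and 2060 (97%) had the same sign. A further 471 control calls were not called in the knockout, and 117 of them had an unadjusted interaction p under 0.05. For the 1215 knockout calls not called in control mice that number was 158. The median size of the response of the control calls was 0.80 in control and 0.67 in knockout mice, and for the knockout calls 0.71 in knockout and 0.50 in control mice, each being larger in the genotype that chose the genes. HFD and LFD libraries did not overlap for 1214 genes in control mice (7.80%) and 1299 in knockout mice (8.34%). For 432 genes (2.77%) this held in both with the same direction, and for 0 genes with opposite directions.

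De novo lipogenesis is the making of fatty acids from glucose. Of 22 genes of the pathway 9 fell and 1 rose in control mice, and 9 fell and 3 rose in the knockout, with median responses of -0.56 and -0.42 and a median interaction of 0.05 (all genes 0.01). That median was -0.09 without control LFD replicate 4 and 0.31 without knockout LFD replicate 7. Beside this and later list counts, 4.35% of all genes rose and 4.51% fell in control mice. In the knockout these shares were 6.68% and 6.96%. The summed CPM of the list was higher on HFD, with means of 78402 on LFD and 103999 on HFD in control mice. In the knockout these means were 72591 and 95393 CPM. Scd1, the most abundant of the called members by mean TPM, had positive responses in both genotypes. The same 9 genes fell in both, Acly, Acaca, Acacb, Fasn, Elovl6, Me1, Thrsp, Mlxipl and Tkt. Acaca makes the malonyl-CoA that Fasn uses to build palmitate, Elovl6 lengthens it, Acly and Me1 supply acetyl-CoA and NADPH, Acacb makes malonyl-CoA at mitochondria, Tkt is an enzyme of the pentose phosphate pathway, and Mlxipl encodes the glucose-sensing transcription factor ChREBP.

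The promoters of Fasn, Thrsp and Mlxipl are shown because these lipogenic genes fell in both genotypes, and that of Insig1, a sterol sensor, because it rose in both. Each run is the 250 bases before the RefSeq start site on the build GRCm38.p6, 5′ to 3′ on the strand of the gene, and capitals mark CCAAT or its complement ATTGG and the E-box CACGTG. Fasn lies at chr11:120824548-120824797 on the minus strand, Thrsp at chr7:97417551-97417800 on the minus strand, Mlxipl at chr5:135089640-135089889 on the plus strand and Insig1 at chr5:28071162-28071411 on the plus strand.
Fasn: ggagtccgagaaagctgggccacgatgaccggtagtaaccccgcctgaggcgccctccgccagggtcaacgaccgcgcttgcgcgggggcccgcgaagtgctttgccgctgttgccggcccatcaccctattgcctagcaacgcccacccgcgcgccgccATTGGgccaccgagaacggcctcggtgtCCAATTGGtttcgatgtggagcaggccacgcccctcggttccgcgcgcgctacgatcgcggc
Thrsp: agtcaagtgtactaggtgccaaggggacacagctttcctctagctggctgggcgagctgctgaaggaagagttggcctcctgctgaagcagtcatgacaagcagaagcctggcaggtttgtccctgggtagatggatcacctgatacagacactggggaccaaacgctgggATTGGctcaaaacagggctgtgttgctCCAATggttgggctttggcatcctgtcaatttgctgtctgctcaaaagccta
Mlxipl: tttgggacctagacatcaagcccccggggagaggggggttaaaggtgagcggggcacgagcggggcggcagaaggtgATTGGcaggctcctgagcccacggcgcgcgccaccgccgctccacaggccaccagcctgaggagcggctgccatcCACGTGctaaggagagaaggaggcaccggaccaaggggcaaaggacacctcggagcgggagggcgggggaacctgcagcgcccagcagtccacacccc
Insig1: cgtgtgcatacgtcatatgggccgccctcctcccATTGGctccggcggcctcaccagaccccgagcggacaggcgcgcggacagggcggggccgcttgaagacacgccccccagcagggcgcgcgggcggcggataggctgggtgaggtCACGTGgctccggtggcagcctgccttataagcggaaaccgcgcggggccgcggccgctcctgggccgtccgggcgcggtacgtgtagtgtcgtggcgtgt
Fasn held 3 CCAAT matches, of which the last 2 overlap, and Thrsp held 2. Mlxipl held 1 at -173 and a CACGTG at -98, and Insig1 held 1 at -216 and a CACGTG at -101. The first motif, on either strand, was found in 11120 of 32851 RefSeq promoter windows of this length (33.8%) and the E-box in 1978 (6.02%). Among 11 promoters of the 9 lipogenic genes, 5 held CCAAT and 1 held CACGTG. A second promoter of Mlxipl held neither motif, and neither did those of Acaca, Acly, Elovl6 and Tkt.

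Fasn (build NCBIM37, chr11:120667254-120685492, minus strand) was at 3361, 6138, 4078, 8327 and 4450.3 CPM in control LFD libraries and 3057, 1387, 884, 698 and 1302 CPM in control HFD libraries. Knockout libraries held Fasn at 7009, 12606, 7726, 3653 and 3557 CPM on LFD and 952, 725, 744, 2006 and 2412 CPM on HFD. No HFD library reached an LFD library of its genotype, and the responses were -1.85 in control (SE 0.44, adjusted p = 0.0202 by edgeR) and -2.34 in knockout mice (SE 0.44, adjusted p = 0.00341 by edgeR). The interaction was -0.49 (95% interval -1.79 to 0.81), which leaves room for a difference of more than 1 log2 unit.

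Acaca was at 1168, 1947, 1838, 3594 and 1367 CPM in control LFD libraries and 586, 409, 283, 283 and 313 CPM in control HFD libraries. Knockout values were 2107, 3218, 1961, 1484 and 1349 CPM on LFD and 375, 293, 312, 816 and 428 CPM on HFD. The diets did not overlap in either genotype, with responses of -2.40 and -2.19 and an interaction of 0.22 (SE 0.47, 95% interval -0.76 to 1.2). Thrsp, a lipogenic regulator of fat and liver, was at 209.9, 306, 365, 982 and 249 CPM in control mice on LFD and 139.5, 51.5, 45.9, 23.8 and 40.1 CPM on HFD. In the knockout, Thrsp was at 322, 873, 345, 275 and 183 CPM on LFD and 148, 36.6, 46.3, 132 and 70.2 CPM on HFD. Again each HFD library lay under each LFD library of its genotype, and the interaction was 0.61 (95% interval -0.94 to 2.15). Mlxipl was the most tightly measured of these genes, at 55.2 ± 12.8 CPM on LFD and 21.8 ± 5.09 CPM on HFD in control mice (mean and SD, n = 5) and at 56.8 ± 9.13 and 27.8 ± 3.41 CPM in the knockout. Its interaction was 0.31 (95% interval -0.22 to 0.84).

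The desaturases Fads1 and Fads2, of the same list, were called in neither genotype, with responses of 0.00 and -0.40 in control and -0.01 and -0.10 in knockout mice. Scd1, the abundant stearoyl-CoA desaturase of white fat, had responses of 0.62 in control mice (adjusted p = 0.104 by edgeR) and 0.67 in the knockout (adjusted p = 0.0557 by edgeR), and HFD libraries lay above LFD libraries in both. Its relative Scd2 rose in both, from 776, 560.2, 273, 211 and 223 CPM to 1994, 1340.4, 854, 731 and 1459.7 CPM in control mice. In the knockout Scd2 rose from 496, 576, 474, 395 and 327 CPM on LFD to 711, 1285, 867, 1489 and 1698 CPM on HFD, without overlap of the diets, while in control mice the lowest HFD library lay below the highest LFD library. The Scd2 interaction was -0.23 (95% interval -1.26 to 0.81).

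**Figure D2:**
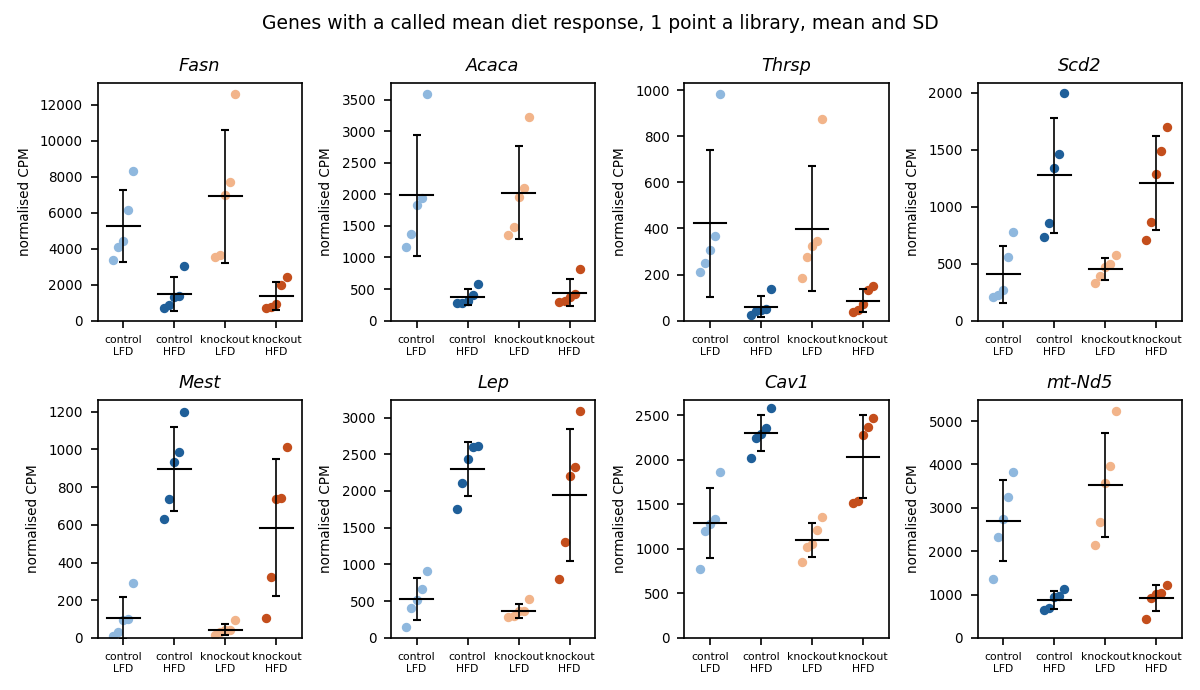
Normalised CPM of 8 genes with a called mean diet response, 1 point a library ordered by value within each group, with the mean and SD of 5 libraries. Fasn, Acaca, Thrsp and mt-Nd5 are lower and Scd2, Mest, Lep and Cav1 higher on HFD in both genotypes.

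Some genes known to follow the growth of fat cells rose in both. Of 6 fat expansion genes 3 rose in control and 4 in knockout mice, with median responses of 1.65 and 1.79. Lep, which encodes leptin, was at 914, 517, 412, 152 and 661 CPM on LFD and 2439, 2599, 2104, 1759 and 2607 CPM on HFD in control mice. Knockout values of Lep were 363, 296, 523, 291 and 365 CPM on LFD and 1309, 2207, 2328, 799 and 3088 CPM on HFD. All HFD libraries lay above all LFD libraries of their genotype, with responses of 2.12 and 2.40 (adjusted p = 0.00248 and 0.000621 by edgeR) and an interaction of 0.29 (95% interval -0.77 to 1.35).

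Mest, an imprinted gene whose level in fat tracks fat mass, was at 93.1, 98.7, 29.0, 7.96 and 289.9 CPM in control LFD and 632, 985, 737, 932 and 1200.2 CPM in control HFD libraries. Its knockout values were 15.9, 39.5, 96.4, 28.8 and 41.2 CPM on LFD and 322, 744, 737, 108 and 1010.0 CPM on HFD. The spread within a group was wide, the diets did not overlap, and the interaction of 0.61 had a 95% interval of -1.35 to 2.57. Knockout HFD replicates 17 and 20 were the lowest of their group for both Lep and Mest. Npr3, the clearance receptor of natriuretic peptides, had responses of 1.19 and 1.17, and Bmp3, a secreted BMP antagonist, 0.98 and 1.11. Both were called in the mean response, Bmp3 also in the knockout (adjusted p = 0.0853 by edgeR).

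Caveolae, the membrane pits that fill the surface of fat cells, had 5 of 7 tested genes rising in each genotype and median responses of 0.70 and 0.80. Cav1, their main coat protein, was at 1869, 1280.5, 1197, 779.6 and 1334 CPM on LFD and 2288, 2353, 2024, 2252 and 2580.4 CPM on HFD in control mice. Knockout libraries held Cav1 at 1018, 859, 1210.4, 1055 and 1356 CPM on LFD and 1520.4, 2276, 2469.5, 1537 and 2369 CPM on HFD. The diets did not overlap in either genotype, and the interaction was 0.06 (SE 0.28, 95% interval -0.54 to 0.65). Prkcdbp (cavin-3) had an interaction of -0.04 (95% interval -0.74 to 0.66). Among the adipokines, Adipoq, which encodes adiponectin, rose in the knockout (0.47, adjusted p = 0.0727 by edgeR) and had a response of 0.26 in control mice (adjusted p = 0.417 by edgeR), with an interaction of 0.21 (95% interval -0.26 to 0.68).

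Of 21 tested genes of cholesterol synthesis and uptake 4 rose in control and 6 in knockout mice, none fell, and the medians were 0.49 and 0.47. Rises made up 4.35% and 6.68% of all genes. Insig1 was at 319, 188, 253, 496 and 205 CPM on LFD and 741, 669, 300.0, 358 and 788 CPM on HFD in control mice. In the knockout, Insig1 was at 230.5, 340.3, 197, 356 and 246 CPM on LFD and 497, 975.2, 664, 957 and 940.1 CPM on HFD. Control libraries of the diets overlapped and knockout libraries did not, yet the interaction of 0.59 (95% interval -0.29 to 1.47, unadjusted p = 0.175 by edgeR) was not called. Sc5d and Cyp51, enzymes of the pathway, had interactions of 0.30 (95% interval -0.26 to 0.87) and -0.02 (95% interval -0.66 to 0.61).

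Uptake of fatty acids from lipoproteins had 3 of 12 genes rising in each genotype, none falling, and medians of 0.41 and 0.38. Over all genes, 4.35% rose in control and 6.68% in knockout mice. Gpihbp1, which carries lipoprotein lipase to the capillary wall, rose by 0.83 and 0.80, and the lipoprotein receptor Vldlr by 0.76 and 0.65. The diets did not overlap for either gene in either genotype, and the 95% intervals of their interactions were -0.53 to 0.46 and -0.52 to 0.30. Such separation was held by 7.80% of all genes in control and 8.34% in knockout mice.

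Lipid-associated macrophages gather around large fat cells. Of 18 of their genes 7 rose in control and 4 in knockout mice, against 4.35% and 6.68% of all genes. The medians were 0.57 and 0.51. The lysosomal protease Ctsl was at 367 ± 75.0 and 703 ± 76.9 CPM in control mice on LFD and HFD and at 299 ± 39.6 and 617 ± 142 CPM in the knockout (mean and SD, n = 5), with no overlap of the diets and an interaction of 0.11 (95% interval -0.38 to 0.59). Lgals3, a lectin of these cells, rose by 1.11 and 0.88. Other members had larger control responses. Atp6v0d2, a lysosomal proton pump subunit, was at 2.72, 2.53, 1.81, 1.25 and 3.89 CPM on LFD and 4.81, 24.9, 4.43, 10.7 and 29.4 CPM on HFD in control mice. Knockout values of Atp6v0d2 were 2.21, 1.76, 3.23, 5.39 and 3.75 CPM on LFD and 1.54, 5.31, 7.76, 2.35 and 6.66 CPM on HFD. The diets were apart in control mice and overlapped in the knockout, and the interaction was -2.07 (SE 0.74, unadjusted p = 0.0115 by edgeR, not called). For the macrophage elastase Mmp12 it was -1.39 (unadjusted p = 0.0455 by edgeR, not called).

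Of 12 tested genes of the mitochondrial genome 7 fell in control and 5 in knockout mice, with medians of -0.97 and -0.71 and the same sign for all 12. mt-Nd5, a complex I subunit, was at 3819, 2327, 2749, 1353 and 3242 CPM on LFD and 649.5, 966, 682, 1123 and 950.4 CPM on HFD in control mice. Knockout libraries held mt-Nd5 at 3576, 2149.7, 2681, 5239 and 3966 CPM on LFD and 1016, 1030.4, 1213, 924 and 431 CPM on HFD. The diets did not overlap in either genotype and the interaction was -0.31 (95% interval -1.17 to 0.56). mt-Co3, a subunit of cytochrome oxidase, fell in control mice (-0.84, adjusted p = 0.00886 by edgeR), and its knockout response was -0.45 (adjusted p = 0.135 by edgeR), with an interaction of 0.40 (95% interval -0.13 to 0.93).

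Among genes of at least 1 TPM with a called mean response, the largest fitted rises were Hist1h4m, Gm16309, Tph2, SNORA3 and Lipf. Lipf, a gastric type lipase, was at 2.61, 0.269, 0.477, 0.447 and 0.648 CPM on LFD and 11.5, 15.5, 10.9, 21.6 and 31.2 CPM on HFD in control mice. In the knockout, Lipf was at 0.331, 0.180, 0.819, 0.398 and 0.367 CPM on LFD and 4.16, 7.91, 14, 1.52 and 13.7 CPM on HFD. HFD and LFD libraries were apart in both, and the responses of 4.36 and 4.30 gave an interaction of -0.05 (95% interval -1.83 to 1.72). Tph2, an enzyme of serotonin synthesis, was at 1.80, 0.471, 0.295, 0.0298 and 0.239 CPM on LFD and 9.97, 20.9, 9.87, 23.2 and 43.9 CPM on HFD in control mice. Knockout values of Tph2 were 0.262, 0.874, 1.11, 0.0543 and 0.0478 CPM on LFD and 1.36, 13.4, 9.66, 1.59 and 12.2 CPM on HFD. The diets were again apart in both, with an interaction of -1.25 (95% interval -3.75 to 1.26). Hist1h4m was at 0 in every LFD library and above 0 in 3 of 10 HFD libraries, Gm16309 was at 0 in every control LFD library, and SNORA3 did not exceed 1.04 CPM in any library, so no fold is given for these.

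The largest fitted falls were Rpl9-ps6, Rpl28-ps1, a U1 RNA gene, Eif4a-ps4 and Mmd2. Mmd2, a membrane receptor of the progestin and adipoQ receptor family, was at 0.623, 7.05, 20.3, 57.7 and 3.52 CPM in control LFD and 0.0396, 0.172, 0.0796, 0.0522 and 0 CPM in control HFD libraries. Knockout libraries held Mmd2 at 11.9, 1.17, 6.64, 0 and 0.654 CPM on LFD and 0.245, 0.0578, 0, 0.438 and 0.0393 CPM on HFD. The diets overlapped in the knockout only, and the interaction of 3.27 had a 95% interval of -0.50 to 7.05. The other 4 are named as pseudogenes or belong to a multigene family, which share reads with their relatives, and each had 1 group or more with at most 3 counts in every library. Rpl28-ps1, for example, was at 0 in every control HFD library, and Rpl9-ps6 reached 40.5 CPM in 1 knockout LFD library and at most 1.07 CPM in the other 19.

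The smallest interaction p-values, none of them called, were led by genes with a called response in 1 genotype and no call in the other. H19 (NCBIM37, chr7:149761434-149764048, minus strand), an imprinted non-coding RNA abundant in the embryo and in muscle, was at 11.9, 12.0, 19, 30.6 and 25.5 CPM on LFD and 13.4, 11.7, 8.49, 11.7 and 12.7 CPM on HFD in control mice. In the knockout, H19 was at 17.2, 12.7, 9.66, 24.0 and 13.7 CPM on LFD and 37.5, 20.7, 37.5, 72.2 and 20.7 CPM on HFD. Knockout HFD libraries were the highest group, though 2 of them lay within the knockout LFD range. It rose in the knockout (1.29, adjusted p = 0.0188 by edgeR), its control response was -0.77 (adjusted p = 0.198 by edgeR), and the interaction was 2.06 (SE 0.46, 95% interval 1.09 to 3.03, unadjusted p = 0.000282, adjusted p = 0.976 by edgeR). DESeq2 called it (adjusted p = 0.0172).

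Pdgfra (chr5:75548316-75594229, plus strand), the growth factor receptor that marks fat progenitors, was at 242, 259.5, 240.2, 218 and 224 CPM on LFD and 147, 165, 145, 158 and 109 CPM on HFD in control mice. Knockout values of Pdgfra were 207, 168, 207, 160.5 and 159 CPM on LFD and 173, 173, 181, 199 and 176 CPM on HFD. It fell in control mice without overlap of the diets (-0.71, adjusted p = 0.00125 by edgeR), and the knockout response was 0.00 (95% interval -0.24 to 0.24). The interaction was 0.71 (SE 0.16, 95% interval 0.37 to 1.05, unadjusted p = 0.000287 by edgeR), not called by edgeR and called by DESeq2 (adjusted p = 0.0188). Cd34, a surface glycoprotein of progenitors and endothelium, had responses of 0.33 and 0.68, and Pi16, of early progenitors, 0.49 and 0.95, both called in the knockout. Over the 15 progenitor genes the median interaction was 0.28, positive in 10, and 0.13 without knockout LFD replicate 9.

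Itgax (chr7:135273061-135294171, plus strand), which encodes the integrin CD11c of macrophages and dendritic cells, was at 5.25, 7.18, 7.48, 6.8 and 9.66 CPM on LFD and 12.3, 14.9, 14.9, 13.3 and 14 CPM on HFD in control mice. Knockout libraries held Itgax at 7.67, 14.2, 11.6, 7.92 and 6.75 CPM on LFD and 6.6, 8.82, 6.11, 7.48 and 10.9 CPM on HFD. It rose in control mice without overlap (0.93, adjusted p = 0.0135 by edgeR), the knockout diets overlapped, and the interaction was -1.2 (SE 0.30, 95% interval -1.83 to -0.57, unadjusted p = 0.000739 by edgeR). DESeq2 called it (adjusted p = 0.0944). Il1rn, the interleukin 1 receptor antagonist of myeloid cells, had responses of 1.87 and 0.01 and an interaction of -1.85 (95% interval -3.32 to -0.38).

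Sik1 (chr17:31981193-31992737, minus strand), a kinase induced by cAMP, moved in the knockout. It was at 39.9, 28.0, 34.6, 30.4 and 37.8 CPM on LFD and 26.4, 26.3, 35.3, 37.5 and 38.4 CPM on HFD in control mice. Its knockout values were 43.2, 43.4, 50.9, 40.5 and 32.7 CPM on LFD and 20.2, 22.9, 22.5, 26.0 and 24.9 CPM on HFD. Knockout diets were apart (response -0.85, adjusted p = 0.000939 by edgeR), control diets overlapped (response -0.06), and the interaction of -0.80 (95% interval -1.22 to -0.38) was not called. The clock gene Per1, another target of cAMP signalling, had responses of -0.07 and -0.81 and an interaction of -0.74 (95% interval -1.33 to -0.15). The clock repressor Nr1d1 fell in both, with responses of -0.68 and -0.81. Over the 16 clock genes tested the median interaction was -0.13, with -0.32 without control LFD replicate 1, -0.06 without control LFD replicate 3 and 0.01 without 4 libraries rich in abundant genes (control LFD 4, control HFD 11, knockout LFD 7 and knockout HFD 17). Nos1ap, an adaptor of neuronal nitric oxide synthase, was at 3.73, 3.80, 2.62, 3.89 and 3.43 CPM on LFD and 0.914, 1.03, 0.939, 0.629 and 2.04 CPM on HFD in the knockout. In control mice it was at 2.56, 2.58, 1.12, 1.46 and 3.73 CPM on LFD and 1.51, 2.57, 1.72, 2.14 and 2.83 CPM on HFD. Its fall in the knockout was called (-1.65, adjusted p = 0.00719 by edgeR), and the interaction of -1.56 (unadjusted p = 0.00588 by edgeR) was not. Fpr1, at a mean of 0.197 TPM, was under the filter and was not tested.

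**Figure D3:**
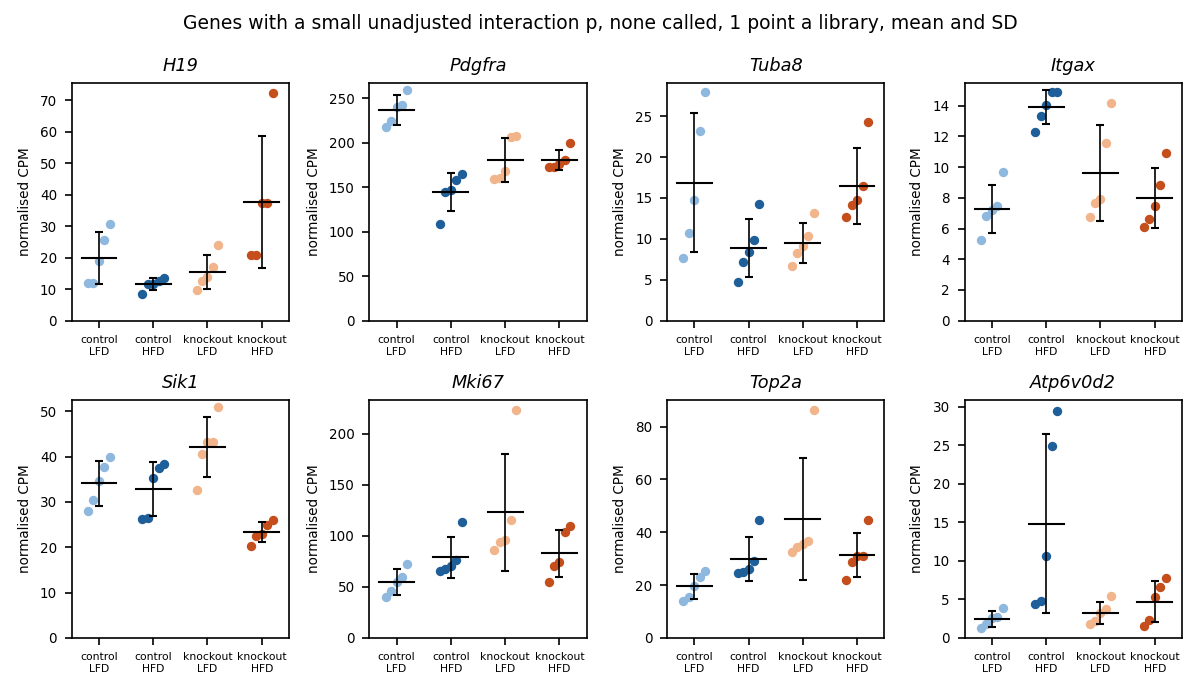
Normalised CPM of 8 genes with a small unadjusted interaction p, none of them called by edgeR, 1 point a library ordered by value within each group, with the mean and SD of 5 libraries. H19 is highest in knockout HFD libraries, Pdgfra is lower and Itgax higher on HFD in control mice, and Sik1 is lower on HFD in knockout mice.

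Other genes with small p-values were near the limit of detection or belong to muscle. Gm14434, called in both genotypes with opposite directions, was at 4.52 and 5.77 CPM in control HFD replicates 14 and 15, at 2.18 CPM in knockout LFD replicate 7 and at 0.145 CPM or less in the other 17 libraries. Gm15937, a pseudogene, was at 0.814, 1.19, 0.883, 2.68 and 0.781 CPM on LFD and 0.112, 0, 0, 0 and 0.0393 CPM on HFD in the knockout, and at 0.476 to 1.31 and 0.225 to 1.53 CPM in control mice. AU015336, a non-coding transcript, ranged over 0.222 to 1.25 CPM on LFD and 0 to 0.0223 CPM on HFD in the knockout. A U1 RNA gene of chromosome 11 did not exceed 0.995 CPM in any library, and Gm13980, annotated as an immunoglobulin variable segment, did not exceed 0.323 CPM. Trim63, a ubiquitin ligase of muscle, was at 0.131, 0, 1.12, 0.878 and 9.40 CPM in control LFD libraries and at 0 in every control HFD library. In the knockout, Trim63 was at 1.71, 1.29, 0.209, 1.16 and 0 CPM on LFD and 2.58, 1.16, 1.33, 2.69 and 0.183 CPM on HFD. Tuba8, a tubulin of muscle and testis, had responses of -0.92 and 0.79 and an interaction of 1.71 (95% interval 0.77 to 2.65, unadjusted p = 0.00125 by edgeR, not called), with ranges of 7.69 to 27.9 and 4.75 to 14.2 CPM in control and 6.70 to 13.2 and 12.6 to 24.3 CPM in knockout mice on LFD and HFD.

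Skeletal muscle fibre markers moved with these values. All 23 of the 25 markers that were tested had a positive interaction, with a median of 4.88, and 17 of them fell with diet in control mice. The summed level of the list was 249, 166, 989, 498 and 11551 CPM in control LFD libraries and 121 to 218 CPM in control HFD libraries. In the knockout it was 215 to 4246 CPM on LFD and 177 to 3280 CPM on HFD. Control HFD libraries were thus uniformly low and every other group was mixed, and Cox6a2, Mybpc1 and Myh2 were at 0 in 1 control HFD library or more. Tnnt3, fast troponin T, was at 16.4, 2.0, 79.8, 30.9 and 1069.9 CPM in control LFD and 1.12, 13.5, 1.16, 0.875 and 0.346 CPM in control HFD libraries. Knockout values of Tnnt3 were 200.5, 108, 12.2, 402 and 0.797 CPM on LFD and 458, 91.8, 324, 254 and 8.78 CPM on HFD, and its interaction of 6.79 (SE 1.96, unadjusted p = 0.00478 by edgeR) was not called. For the fast myosin Myh4 it was 6.8 (SE 2.26, unadjusted p = 0.0123 by edgeR). Without control LFD replicate 5, which held the sum of 11551 CPM, the median interaction of the list was 3.01. H19, Trim63 and Tuba8 are also made in muscle fibres, and the part of muscle RNA in their values was not tested.

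**Figure D4:**
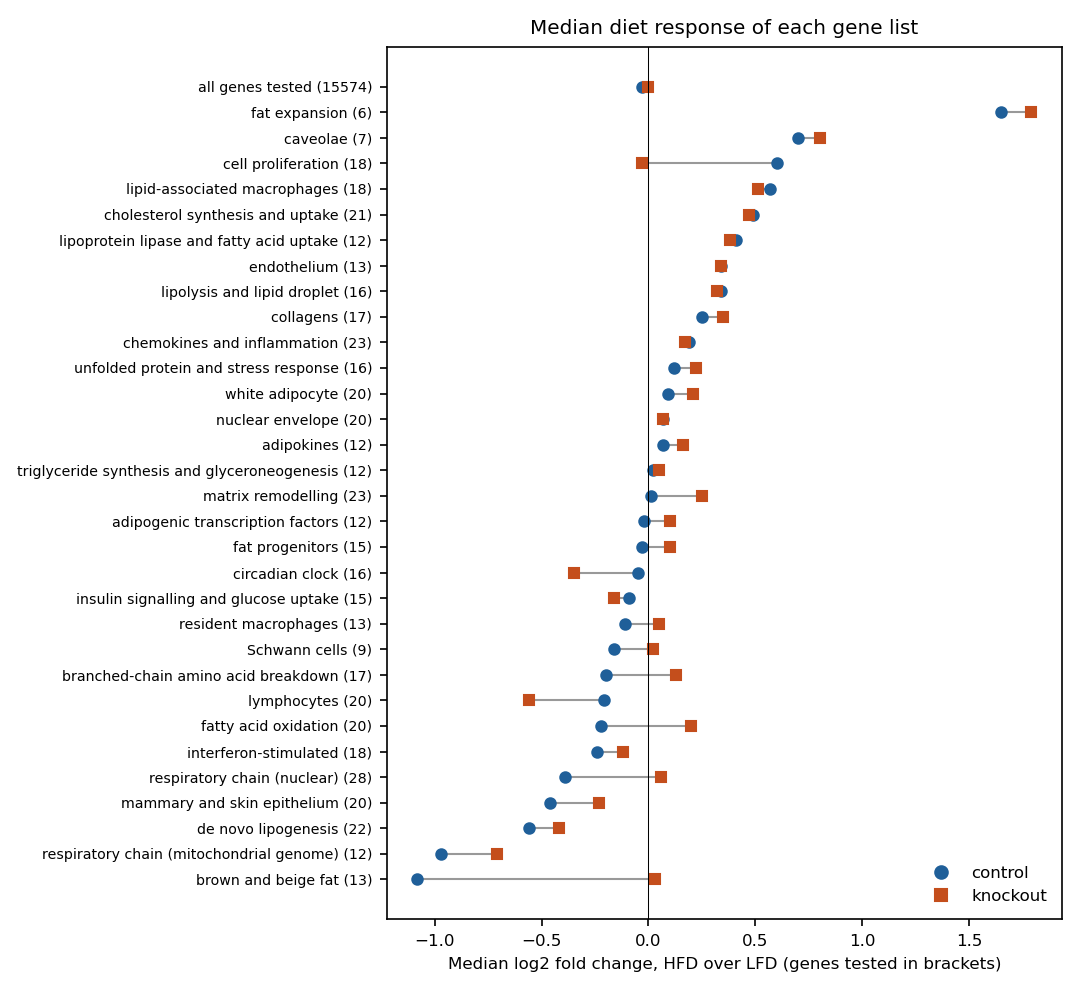
Median diet response of each gene list in control and knockout mice as log2 fold change of HFD over LFD, with the number of genes tested in brackets and the muscle fibre list left out because its control median is -4.70. Fat expansion and caveolae are high and de novo lipogenesis low in both genotypes, while brown and beige fat and the nuclear respiratory chain have medians of -1.08 and -0.39 in control mice and of 0.03 and 0.06 in the knockout.

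Some lists had interactions of 1 sign across most members although none was called. All 28 nuclear genes of the respiratory chain had a positive interaction. Over all genes that share was 51.8%, but it was 60.1% between 20 and 100 TPM and 74.9% at 100 TPM or more. The median interaction of all genes in these classes was 0.05 and 0.13. The list had median responses of -0.39 in control and 0.06 in knockout mice and a median interaction of 0.43. Leaving out single libraries gave 0.19 (without control LFD replicate 4) to 0.62 (without knockout LFD replicate 7). Ndufs1, a complex I subunit, fell in control mice (-0.45, adjusted p = 0.0466 by edgeR) and had a knockout response of -0.06, with an interaction of 0.39 (95% interval 0.01 to 0.77). Fatty acid oxidation had 19 of 20 genes positive and a median interaction of 0.50, from 0.29 (without control LFD replicate 4) to 0.59. Acadm, the medium chain acyl-CoA dehydrogenase, was at 349, 248, 389.7, 394 and 405 CPM on LFD and 416, 439.5, 429, 318 and 403 CPM on HFD in control mice. Knockout libraries held Acadm at 253, 272, 228, 345 and 302 CPM on LFD and 573, 380.2, 465, 357 and 407 CPM on HFD. It rose in the knockout without overlap of the diets (0.64, adjusted p = 0.0147 by edgeR), with a control response of 0.17 and an interaction of 0.47 (95% interval 0.01 to 0.94, unadjusted p = 0.047 by edgeR). Breakdown of branched-chain amino acids had 16 of 17 genes positive, with a median of 0.29, and of 0.15 without knockout HFD replicate 17.

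Brown and beige fat genes had medians of -1.08 in control and 0.03 in knockout mice and an interaction of 1.44 that was positive for 11 of 13 genes, and 0.79 without control LFD replicate 4. Cidea, a lipid droplet protein of brown fat, was at 20.2, 32.8, 121, 129 and 112 CPM on LFD and 18.9, 24.7, 11.4, 7.54 and 7.63 CPM on HFD in control mice. In the knockout, Cidea was at 46.3, 110.3, 41.4, 23.9 and 13.5 CPM on LFD and 126, 8.84, 25.3, 24.1 and 10.3 CPM on HFD. It fell in control mice (-2.57, adjusted p = 0.043 by edgeR) with overlap of the diets, and knockout HFD replicate 17 stood far above the other 4 of its group. Ucp1, the uncoupling protein of brown fat, was at 19.2, 12.8, 149, 117 and 178 and 1.52, 43.1, 4.90, 4.18 and 0.755 CPM in control mice on LFD and HFD. Knockout values of Ucp1 were 39.0, 80.8, 30.9, 19.8 and 9.84 and 244, 11.3, 44.9, 26.7 and 4.71 CPM, with an interaction of 4.0 (95% interval 0.95 to 7.06, unadjusted p = 0.0157 by edgeR, not called). Summed over the list, control LFD libraries held 126 to 515 CPM, control HFD 59.8 to 167 CPM, knockout LFD 89.7 to 345 CPM and knockout HFD 86.1 to 693 CPM. In those 4 libraries, 1 of each group, the 10 most abundant genes took 31.1% to 35.9% of counts, against at most 30.1% in the other 16. These libraries were the highest of their group in the respiratory chain and fatty acid oxidation sums. Without them the median interactions were 0.39 (respiratory chain), 0.29 (fatty acid oxidation) and 1.0 (brown and beige fat). Muscle fibres also express respiratory chain and oxidation genes, and the fibre sums above run from 121 to 11551 CPM. Control HFD libraries had the lowest mean sum both for brown and beige fat and for muscle fibre markers. The part of muscle fibres in these lists, brown and beige fat included, was not tested.

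**Figure D5:**
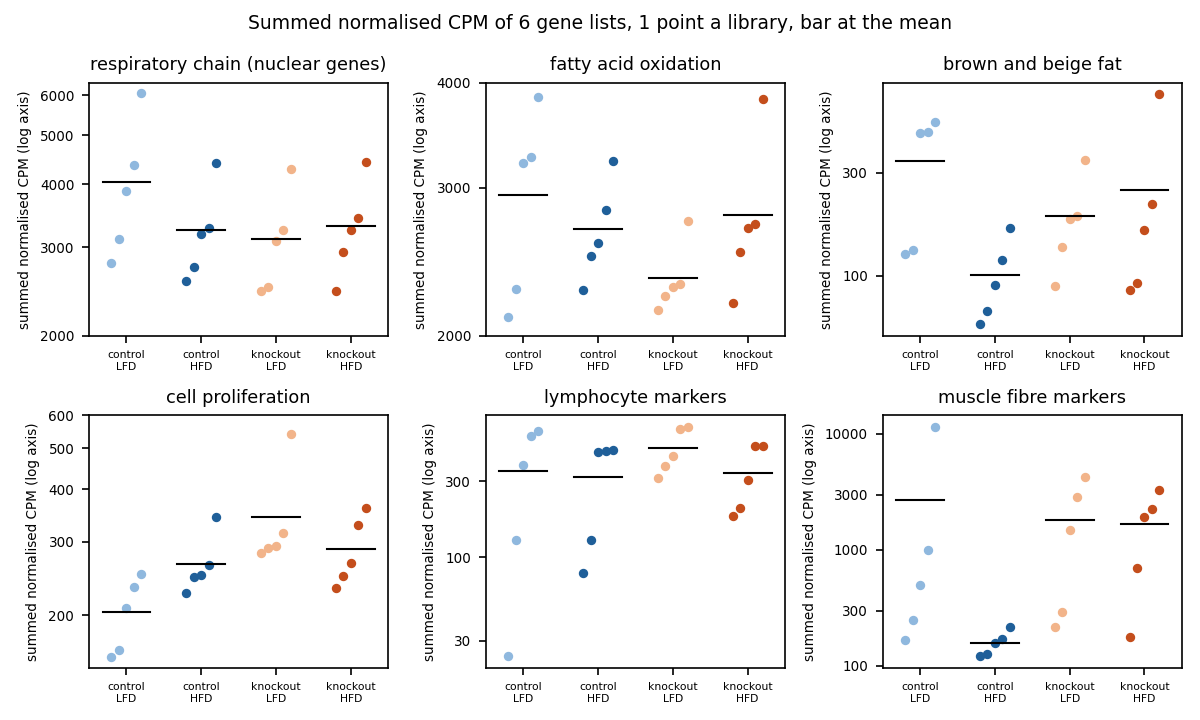
Summed normalised CPM (log axis) of 6 gene lists, 1 point a library ordered by value within each group, with a bar at the mean of 5 libraries. Groups overlap in every panel except the proliferation sums of knockout and control LFD libraries, and control HFD libraries are the lowest group for brown and beige fat (59.8 to 167 CPM) and muscle fibre markers (121 to 218 CPM).

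Proliferation genes had the opposite sign. The interaction was negative for 17 of 18, with medians of 0.60 in control and -0.03 in knockout mice and a median interaction of -0.65. Mki67, a marker of cycling cells, was at 45.6, 59.2, 72.6, 54.3 and 40.2 CPM on LFD and 67.3, 70.3, 76.5, 65.5 and 114 CPM on HFD in control mice. Knockout libraries held Mki67 at 94.2, 115, 85.7, 223 and 96.1 CPM on LFD and 70.8, 109.9, 103, 55.1 and 74.7 CPM on HFD. The diets overlapped in both genotypes, and the interaction was -1.10 (SE 0.36, 95% interval -1.85 to -0.36, unadjusted p = 0.00594 by edgeR, not called). Ccna2, cyclin A2, rose in control mice (0.82, adjusted p = 0.087 by edgeR) and had a knockout response of -0.35 and an interaction of -1.17 (95% interval -1.96 to -0.37). Knockout LFD replicate 9 held the highest proliferation sum, 540 CPM against 282 to 314 CPM in the other 4, and without it the median interaction was -0.41. On LFD the sums of control libraries, 159 to 251 CPM, lay below all knockout libraries. The inguinal depot holds a lymph node, where lymphocytes can divide. Sums of lymphocyte markers ranged from 23.9 to 661 CPM over the 20 libraries, with 18 of 20 markers of negative interaction and a median of -0.38, which was -0.08 without control LFD replicate 1 and -0.77 without control LFD replicate 4. Their part in the proliferation values was not tested.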

How the data were processed

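RNA of 20 iWAT samples was sequenced as stranded libraries after depletion of ribosomal RNA. The authors aligned reads with STAR 2.5.3, quantified transcripts with Salmon 0.13.1 against Ensembl NCBIM37.67 (mm9) and deposited estimated counts and TPM per transcript, and their own tests used tximport and DESeq2. Here the deposited estimated counts were summed per gene with GENCODE vM1 (94334 of 96533 transcripts matched, 97.7%; the rest held 0.377% to 0.581% of counts) and rounded to whole numbers. The deposited TPM served only for the filter of 0.5 and for expression classes. The interaction, both diet responses and their mean were tested with edgeR 4.0.16 (R 4.3.3, quasi-likelihood, TMM, 1 group-means model over 20 libraries), with Wald standard errors and 95% intervals. DESeq2 1.42.0 and limma 3.58.1 were alternatives. The labels number the replicates without tying each to its own mouse, so p-values measure the spread between these samples, which may be technical in part.

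The members and the 32 gene lists (545 symbols, 543 matched, 527 tested) were chosen with earlier results of these data known. Named were Tmem120a and Tmem120b, the 5 genes of smallest interaction p in each direction, the 5 largest rises and falls by the mean response at 1 TPM or more, the 5 called mean responses of smallest interaction p, genes called in both genotypes with opposite directions, up to 4 examples a list, and Fpr1, Nos1ap, H19, Tnnt3 and Myh4. Acacb, Acly, Atp6v0d2, Cyp51, Elovl6, Fads1, Fads2, Il1rn, Mki67, Mlxipl, Mmp12, mt-Nd5, Scd2, Thrsp, Tkt and Ucp1 were chosen after their values were seen, as were the promoters. Promoter sequences came from RefSeq on GRCm38.p6, a later build than that of the counts. The test was checked on simulated data. An example of 1 list is not reported here. No pair of replicates held identical values, and log values of replicates correlated at 0.923 to 0.984 over 40 pairs.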

Additional observations from a re-analysis of the deposited data

Results flagged for a closer look

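In each group of 5, the highest or lowest library was set apart when its gap to the next exceeded 0.71 of the range of the group (Dixon). This held for 17 of the 184 group values examined. Chance gives about 1 in 20 for independent values of normal spread. The values are CPM without a log, and several flags share a library and related genes, so that rate need not hold here.

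Among list sums, control LFD replicate 4 held 9287 CPM of adipokine genes (others 3670 to 4906 CPM) and knockout LFD replicate 7 held 2739 CPM of fatty acid oxidation genes (others 2146 to 2304 CPM). Knockout HFD replicate 17 held 693 CPM of brown and beige fat genes (others 86.1 to 216 CPM). Control HFD replicate 13 was low in interferon-stimulated genes, at 607 CPM (others 702 to 740 CPM). Knockout LFD replicate 9 held 540 CPM of proliferation genes (others 282 to 314 CPM). Control LFD replicate 5 held 11551 CPM of muscle fibre markers (others 166 to 989 CPM). Control HFD replicate 11 held 43636 CPM of white adipocyte markers (others 33809 to 36070 CPM).

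Among genes, control LFD replicate 5 held 2183 CPM of Myh4 (others 0.848 to 91.1 CPM) and 1069.9 CPM of Tnnt3 (others 2.01 to 79.8 CPM). Control HFD replicate 12 held 17.3 CPM of Myh4 (others 0.315 to 0.773 CPM) and 13.5 CPM of Tnnt3 (others 0.346 to 1.16 CPM). Control HFD replicate 11 held 206 CPM of Tmem120a (others 87.4 to 119.7 CPM) and 84.5 CPM of Tmem120b (others 31.9 to 44.9 CPM). Control LFD replicate 1 held 2.61 CPM of Lipf (others 0.269 to 0.648 CPM) and 1.80 CPM of Tph2 (others 0.0298 to 0.471 CPM). Knockout HFD replicate 21 held 2.04 CPM of Nos1ap (others 0.629 to 1.03 CPM), and knockout LFD replicate 9 held 2.68 CPM of Gm15937 (others 0.781 to 1.19 CPM).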

How the results depend on the processing

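No gene passed the interaction test in edgeR when any library was left out (0 to 0 calls) or without the 4 libraries rich in abundant genes, a setting chosen after seeing the data, and DESeq2 called 17. Control calls numbered 829 at an adjusted p under 0.05 and 844 without the 4 libraries. Leaving out single libraries gave 845 (without control HFD replicate 15) to 1581 control calls, with 882 without control HFD replicate 12 and 905 without control LFD replicate 5. The same gave 1558 to 2258 knockout calls and 3416 to 4167 calls of the mean response. Fits of each genotype on its own libraries gave 1427 control and 1476 knockout calls. The agreement of both responses, Pearson's r of 0.337, was 0.136 without a filter on low values, 0.193 without the 4 libraries, 0.245 without knockout LFD replicate 7 and 0.370 without knockout HFD replicate 18. It was 0.494 without genes of a group at 3 counts or fewer, 0.502 with limma on log2(TPM + 0.1), 0.591 with limma on log2(TPM + 1) and 0.587 as Spearman's rho. Of 3782 alternative interaction values of 131 named genes 261 changed sign. None of these was called, and none belonged to a gene with an unadjusted interaction p under 0.05. Without control LFD replicate 4 the median interaction went from 0.22 to -0.14 for triglyceride synthesis and from 0.05 to -0.09 for de novo lipogenesis. With limma on log2(TPM + 1) the median interaction of the muscle list was 2.08, and without the 4 libraries that of the lymphocyte list was -1.25; the causes were not tested. No paired analysis was possible because the replicate numbers are not shared between groups. With 5 libraries a group the median standard error of the interaction was 0.33, and even H19, at 2.06, did not pass the adjusted threshold (adjusted p = 0.976 by edgeR).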

Other observations

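Several other gene groups behaved alike or apart between the genotypes. Of 17 collagen genes 4 rose and 1 fell in control mice and 3 rose and 1 fell in the knockout, with medians of 0.25 and 0.35. The shares of all genes that rose were 4.35% and 6.68%, and those that fell 4.51% and 6.96%. Col6a1, of the microfibrils around fat cells, rose in both (0.63 and 0.92), as did the basement membrane chain Col4a1 (0.80 and 0.82). Endothelial genes had medians of 0.34 in each genotype. Of 12 adipokine genes 3 rose and 2 fell in control mice and 4 rose in the knockout, and 11 had a positive interaction. A positive interaction was held by 51.8% of all genes and by 74.9% of those at 100 TPM or more. Cfd, the adipokine adipsin, fell in control mice (-1.2, adjusted p = 0.0772 by edgeR) and had a knockout response of 0.02, with an interaction of 1.22 (95% interval 0.09 to 2.34, unadjusted p = 0.0364) that was not called.

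Lcn2, a lipid-binding acute phase protein, was at 43.2, 66.3, 59.7, 71.9 and 100.3 CPM on LFD and 38.5, 30.7, 49.6, 50.8 and 34.4 CPM on HFD in control mice. In the knockout it was at 43.2, 64.3, 74.3, 54.4 and 44.0 CPM on LFD and 71.7, 66.5, 56.5, 91.6 and 52.7 CPM on HFD. It fell in control mice (-0.74, adjusted p = 0.0466 by edgeR), had a knockout response of 0.28, and its interaction of 1.02 (95% interval 0.39 to 1.65, unadjusted p = 0.00306) was not called. Pparg, the master regulator of fat cells, rose in the knockout (0.45, adjusted p = 0.0282 by edgeR) and had a control response of 0.10, with an interaction of 0.35 (95% interval -0.01 to 0.72). Gyk, the glycerol kinase, rose in the knockout (0.78) with a control response of 0.11 and an interaction of 0.67 (95% interval 0.01 to 1.33).

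Over all genes tested, in the joint fit of all 20 libraries, 8.86% were called in control and 13.6% in knockout mice. Of 20 epithelial markers 3 were called as falls in control mice and none was called in the knockout. Their median responses were -0.46 and -0.23, with the same sign for 19, and 5 falls were called in the mean response. Of 9 Schwann cell markers 1 rose in each genotype. Of 20 white adipocyte markers 2 rose and 3 fell in control and 4 rose and 1 fell in knockout mice. Of 20 nuclear envelope genes, the class to which Tmem120a belongs, 2 fell in control mice and 1 in the knockout, against 4.51% and 6.96% of all genes. Their median interaction was -0.09, with -0.18 without knockout HFD replicate 21 and 0.0 without control LFD replicate 1.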
